A study of Rattus norvegicus with 8 samples.

Results

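The Gadd45 genes were followed in rat intestinal epithelial cells given transforming growth factor beta 1 (TGF-beta-1). Members were found by their symbol: a feature belonged to the family where the platform annotation gave a symbol starting with Gadd45. This gave 3 family genes among 9652 named genes, Gadd45a, Gadd45b and Gadd45g, each on 1 of the 20500 features. Gadd45gip1, which encodes a protein of the mitochondrial ribosome that binds Gadd45 proteins, carries the name but is unrelated in sequence and was kept apart. Gadd45b was chosen for study because of its ratios on these same arrays, so its ratios in each line are described here and carry no test.

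Gadd45 proteins are small acidic proteins without enzyme activity of their own, and cells make them within minutes to hours of stress or of certain cytokines. They bind the kinase MAP3K4 and so turn on p38 and JNK, they bind PCNA, the cell cycle inhibitor p21 and CDK1, and they act as adaptors in repair-based DNA demethylation. Gadd45a is the classical p53 and DNA damage gene of the family, Gadd45b was found as a gene of myeloid differentiation and is induced by TGF-beta through Smad proteins and by NF-kappaB, and Gadd45g is a cytokine-response gene.

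The series compared 2 rat lines. RIE cells are an established rat intestinal epithelial line. RIE-Ras cells were derived from it by stable transfection with pSV2-H-Ras(12V), which carries human sequence for a constitutively active H-Ras, and the labels do not say whether the line is 1 clone. Each line had 4 two-channel arrays, and every array set total RNA of treated cells (TGF-beta-1 at 2 ng/ml, 1 hr) against RNA of control cells of the same line. A value is thus the log2 ratio of treated over control on 1 array, and no level of a gene, and no marker of the labelled cell type, can be read from it. After features of one symbol were averaged, 17402 features were tested. The array medians lay between 0.20 and 0.45 before centring, and from here on each value has its array median subtracted unless it is called deposited. The labels number the samples of each line from 1 to 4 without saying that they came from separate cultures, so spreads and p-values cover these samples only and may be technical. The correlation across features was 0.688 between RIE replicates 3 and 4, and between -0.0782 and -0.100 for RIE-Ras replicate 1 with the 4 RIE arrays. RIE-Ras replicate 1 was also little correlated with replicates 2, 3 and 4 of its own line, at -0.0410, -0.0147 and 0.161. RIE-Ras replicate 2 had correlations from 0.129 to 0.391 with the RIE arrays.

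The 250 bases before the RefSeq start of each family gene (assembly GRCr8) are shown so that the ratios of the 3 genes can be read beside the motifs of Smad proteins and of other factors nearest to each start. All 3 lie on the minus strand and are printed in the direction of transcription. Capitals mark CAGAC on either strand, a Smad-binding element, CCAAT on either strand, the CCAAT box, and TATAA on the printed strand, the TATA box.

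Gadd45b, chr7:9430719-9430968: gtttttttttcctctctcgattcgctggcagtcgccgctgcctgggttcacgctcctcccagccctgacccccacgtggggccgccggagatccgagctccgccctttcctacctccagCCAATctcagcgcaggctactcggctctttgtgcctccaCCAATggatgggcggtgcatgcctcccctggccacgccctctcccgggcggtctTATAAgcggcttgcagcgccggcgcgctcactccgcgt

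Gadd45g, chr17:13530352-13530601: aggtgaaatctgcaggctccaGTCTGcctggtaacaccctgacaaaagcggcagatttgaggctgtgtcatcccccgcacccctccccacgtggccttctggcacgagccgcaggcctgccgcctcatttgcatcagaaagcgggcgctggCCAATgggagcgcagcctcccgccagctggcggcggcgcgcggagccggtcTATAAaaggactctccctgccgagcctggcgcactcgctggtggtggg

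Gadd45a, chr4:97486800-97487049: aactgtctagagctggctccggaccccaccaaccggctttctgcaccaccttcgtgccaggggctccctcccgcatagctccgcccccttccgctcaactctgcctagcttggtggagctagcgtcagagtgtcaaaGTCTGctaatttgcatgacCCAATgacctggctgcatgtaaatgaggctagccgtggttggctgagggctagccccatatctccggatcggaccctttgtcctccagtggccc

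The windows of Gadd45b and Gadd45g had a TATAA, at positions -38 and -48 from the start, and that of Gadd45a had none. A TATAA was present in 16.7% of 33465 such windows of the rat genome. CCAAT occurred at positions -131 and -92 of Gadd45b, -99 of Gadd45g and -94 of Gadd45a, and in 34% of all windows. CAGAC was found once in Gadd45g (-229) and once in Gadd45a (-113), both as GTCTG on the printed strand, and not in the Gadd45b window, against 42.9% of all windows. The GC-rich Smad motif GGCGC, searched on both strands, was found 2 times in Gadd45b, 3 times in Gadd45g and not in Gadd45a, against 29.8% of all windows. The E box CACGTG stood in the windows of Gadd45b (-178) and Gadd45g (-163) and in 5.59% of all. A p53 half-site by its consensus, searched on both strands, was found only in the Gadd45a window among the 3 (-48), and in 6.64% of all. None of the 3 held the AP-1 site TGACTCA (4.05% of all, both strands) or the NF-kappaB consensus (6.33%, both strands). The matches marked by capitals did not overlap each other. GC content was 66% for Gadd45b and Gadd45g and 59.6% for Gadd45a, with a median of 51.2% over all windows, and the annotated record of Gadd45b extends beyond the upstream edge of its window. These matches describe letters in short windows and show no binding.

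Gadd45b was higher in treated than in control cells on all 8 arrays, and it was also above the array median on all 8. Being above the array median on all 8 arrays was shared by 3.03% of all features. The share of features with a deposited ratio above 0 on all 8 arrays, a weaker condition, was not counted. In RIE cells its deposited fold changes were 6.55, 4.1, 3.49 and 2.93 on replicates 1 to 4, and in RIE-Ras cells they were 6.6, 6.79, 4.84 and 6.96. Relative to the array median the log2 ratios were 2.49, 1.66, 1.44 and 1.10 in RIE cells, with a mean of 1.67 ± 0.59 (SD, n = 4), a 3.18-fold ratio. In RIE-Ras cells they were 2.52, 2.35, 1.95 and 2.60, with a mean of 2.36 ± 0.29 (SD, n = 4), a 5.12-fold ratio. RIE replicate 1 was as high as the RIE-Ras arrays, and the other 3 RIE arrays lay below all 4 RIE-Ras arrays. Each array compared RNA of whole cultures, so a change in the share of responding cells and a change of RNA per cell cannot be told apart. The labels put treated RNA in channel 2 of all 8 arrays, and within a line a dye effect of the Gadd45b feature and the treatment cannot be told apart.

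**Figure D1:**
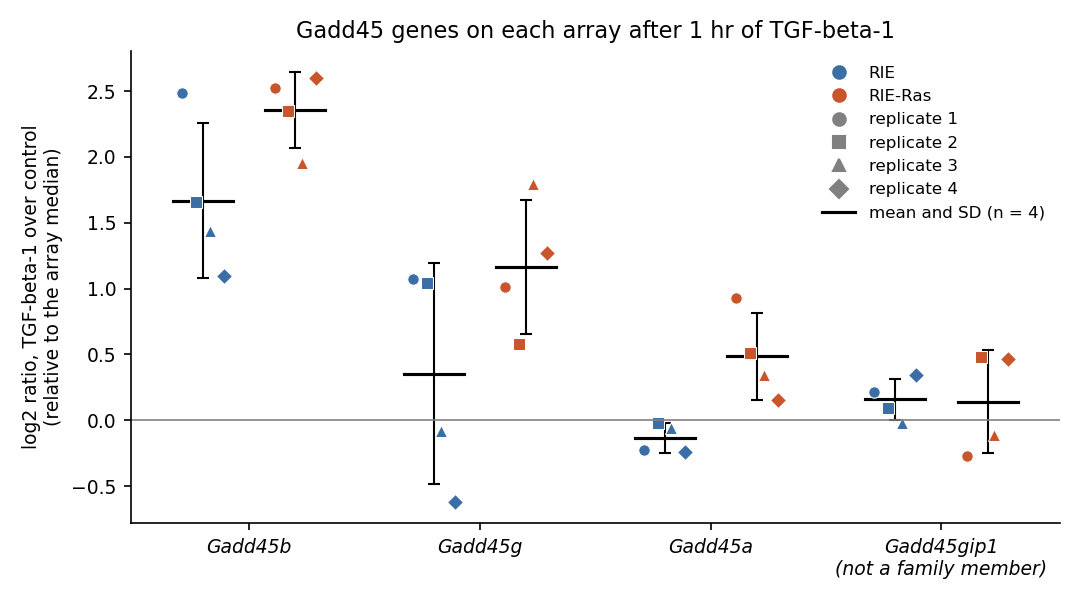
Log2 ratio of TGF-beta-1 over control, relative to the array median, for the 3 Gadd45 genes and Gadd45gip1 on each of 4 RIE (blue) and 4 RIE-Ras (orange) arrays, with the marker shape giving the replicate. Bars are the mean and SD (n = 4). Gadd45b lies between 1.10 and 2.60 on all 8 arrays, Gadd45g spans 0, and Gadd45a is below 0 on the RIE arrays and above 0 on the RIE-Ras arrays.

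Ranks within an array do not depend on how the array is scaled. Counted from the highest ratio among 17402 features, Gadd45b was at place 63, 97, 65 and 412 on the RIE arrays and at place 36, 119, 303 and 107 on the RIE-Ras arrays. It was thus within the upper 2.37% of features on every array. By rank the lines overlapped: RIE replicates 1 to 3 stood higher than RIE-Ras replicates 2 to 4. Smad7, an inhibitory Smad and the known feedback gene of TGF-beta, was at place 57, 104, 64 and 130 in RIE cells and at 101, 492, 628 and 375 in RIE-Ras cells. Gadd45g moved between place 205 and 14545 in RIE cells and between 337 and 2028 in RIE-Ras cells. Gadd45a lay between place 9102 and 12408 in RIE cells and between 479 and 5882 in RIE-Ras cells.

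**Figure D2:**
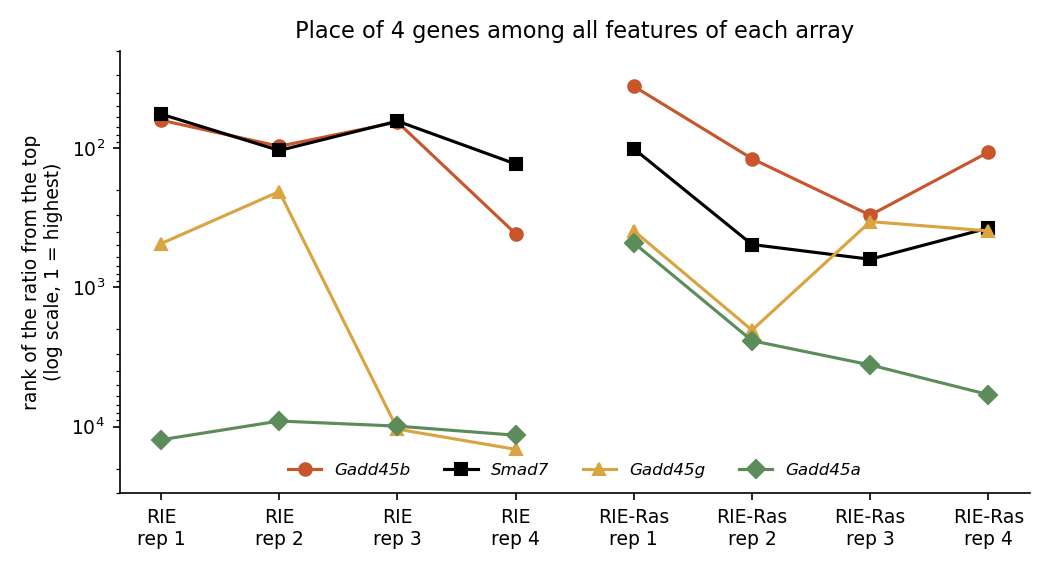
Rank of the log2 ratio of 4 genes among the 17402 features of each array (log axis, 1 is the highest ratio), for 4 RIE and 4 RIE-Ras arrays. Lines join the points of a gene for reading only, since replicates have no order. Gadd45b stands above Smad7 on all 4 RIE-Ras arrays and on RIE replicate 2 alone among the RIE arrays.

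The next comparison asked whether the Gadd45b response differed between the lines. The mean ratio was higher in RIE-Ras than in RIE cells by 0.69 ± 0.30 on the log2 scale (moderated SE), with a 95% interval of 0.01 to 1.36. This difference did not pass in limma, with an adjusted p of 0.462 over all features and an unadjusted p of 0.0473. An exact two-sided permutation test over the 8 arrays gave p = 0.0857, where the smallest possible with 4 arrays against 4 is 0.0286. Gadd45b was picked on these arrays, though not for this contrast. Over all 17402 features 0 passed in this contrast (0%), while 1857 had an unadjusted p under 0.05.

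The size of the line difference of Gadd45b moved with the scaling and with single arrays. It was 0.61 without centring, 0.35 when all arrays were given an equal spread, and 0.01 after quantile normalization. Adjusted p over all alternatives ran from 0.0900, with array weights, to 0.997. The array weights put 8.70 on RIE replicate 3 and at most 1.10 on any other array. Without RIE replicate 1, the array on which Gadd45b was highest in its line, the difference was 0.96 with an adjusted p of 0.255, and the remaining arrays of the lines did not overlap. Without RIE replicate 4, the lowest of its line, the difference was 0.50 (adjusted p = 0.712), and with RIE replicates 3 and 4 averaged it was 0.55 (adjusted p = 0.733). The RIE arrays also differed most in spread, with an SD from the median absolute deviation of 0.24 on replicate 2 and 0.55 on replicate 4.

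Gadd45b and Smad7 stood close together in RIE cells and apart in RIE-Ras cells. Smad7 was at 2.59, 1.61, 1.45 and 1.55 on the RIE arrays and at 1.75, 1.24, 1.25 and 1.32 on the RIE-Ras arrays. It passed in both lines, with 1.80 ± 0.19 in RIE (log2 ± moderated SE, limma adjusted p = 0.0345) and 1.39 ± 0.19 in RIE-Ras cells (adjusted p = 0.0386). In RIE cells 0.0747% of all features passed (0.0172% higher, 0.0575% lower), and in RIE-Ras cells 0.419% (0.299% higher, 0.121% lower). The Smad7 difference between the lines was -0.41 ± 0.27 (adjusted p = 0.636), opposite in sign to that of Gadd45b. The call of Smad7 in RIE cells held without RIE replicate 1 and without RIE-Ras replicate 1 and was lost without each of the other 6 arrays. Its call in RIE-Ras cells held only without RIE replicate 1. Adjusted p over all alternatives reached 0.184 in RIE cells and 0.126 in RIE-Ras cells.

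The ratio of Gadd45b minus that of Smad7 on the same array removes whatever shifts both alike. It was -0.10, 0.05, -0.01 and -0.45 on the RIE arrays, with a mean of -0.13 ± 0.22 (SD, n = 4). On the RIE-Ras arrays it was 0.77, 1.11, 0.70 and 1.27, with a mean of 0.96 ± 0.27. The lines did not overlap in this quantity, and the difference of the means was 1.09. Centring cancels in it, so leaving centring out gives the same values by definition. Equal spread only rescales each array and keeps the sign of each value, and with it the difference was 1.02 without overlap. After quantile normalization it was 0.95, and the lines did not overlap either. Among single features, 7.50% had lines that did not overlap. The pair was singled out after its values were seen, so the difference of 1.09 is a description with no test.

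Gadd45g varied among the RIE arrays and was positive on all RIE-Ras arrays, and it did not pass in either line. On the RIE arrays it was at 1.07, 1.04, -0.08 and -0.62, so 2 arrays lay well above and 2 below the array median. Its mean there was 0.35 ± 0.84 (SD, n = 4, limma adjusted p = 0.571). On the RIE-Ras arrays it was at 1.01, 0.58, 1.80 and 1.27, with a mean of 1.17 ± 0.51, a 2.24-fold ratio (adjusted p = 0.101). Of all features, 14.3% were above 0 on all 4 RIE-Ras arrays. Without centring the RIE-Ras mean was 1.45 and passed (adjusted p = 0.0146). The difference between the lines was 0.81 ± 0.43 (moderated SE), with a 95% interval of -0.16 to 1.78, an adjusted p of 0.536 and an exact permutation p of 0.2. The lines overlapped.

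Gadd45a, the damage-response member, was slightly below the array median on every RIE array and above it on every RIE-Ras array. Its values were -0.23, -0.02, -0.06 and -0.24 in RIE cells, with a mean of -0.14 ± 0.11 (SD, n = 4, limma adjusted p = 0.626). In RIE-Ras cells they were 0.93, 0.51, 0.35 and 0.15, with a mean of 0.49 ± 0.33, a 1.40-fold ratio (adjusted p = 0.114). The difference was 0.62 ± 0.19 (moderated SE), with a 95% interval of 0.20 to 1.05. It did not pass over all features (adjusted p = 0.331, unadjusted p = 0.00938), and the exact two-sided permutation p was 0.0286, the smallest that the 8 arrays can give. The lines were likewise separate on 7.50% of all features in either direction, 870 of the 17402 features in the direction of Gadd45a, and 214 features (1.23%) lay below 0 on every RIE and above 0 on every RIE-Ras array. The sign in RIE cells depends on the centring. The deposited fold changes were 1, 1.28, 1.24 and 1.16 in RIE cells and 2.19, 1.9, 1.59 and 1.28 in RIE-Ras cells, so without centring the RIE mean was 0.22, the RIE-Ras mean was 0.77 and passed (adjusted p = 0.0125), and the lines met at one value.

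Within the family Gadd45b, which was picked for its ratios on these arrays, exceeded both relatives on every array. Its ratio was above that of Gadd45a by 1.81 ± 0.62 in RIE and 1.87 ± 0.40 in RIE-Ras cells (log2, SD, n = 4), and above that of Gadd45g by 1.31 ± 0.48 and 1.19 ± 0.71. The smallest of these gaps was 0.16, to Gadd45g on RIE-Ras replicate 3. Gadd45g exceeded Gadd45a on 2 of 4 RIE arrays and on 4 of 4 RIE-Ras arrays, by 0.49 ± 0.82 and 0.68 ± 0.71 on average. The order of Gadd45g and Gadd45a therefore lay within the spread in both lines, and the smallest gap in RIE-Ras cells was 0.07. All these gaps compare differences, each gene's ratio to its own control, and not the amounts of the 3 transcripts. Gadd45gip1 was at 0.16 ± 0.16 in RIE (SD, adjusted p = 0.612) and 0.14 ± 0.39 in RIE-Ras cells (adjusted p = 0.641), with values on both sides of 0 in each line.

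Few features stayed as far above the array median on all 8 arrays as Gadd45b, which was itself picked for its ratios. Only 3 of 17402 features (0.0172%) were above 1 on the log2 scale on all 8 arrays, and all 3 were named. They were Smad7 with a lowest value of 1.24, Gadd45b with 1.10 and Bhlhe40, a basic helix-loop-helix repressor, with 1.04. The set depended on the scaling. With equal spread Gadd45b was at 0.79 and Bhlhe40 at 0.75 on RIE replicate 4. After quantile normalization Smad7 was at 0.95 on RIE-Ras replicate 3. By mean ratio Gadd45b was the 1st named gene in RIE-Ras cells and the 14th in RIE cells. Among all 17402 features it was at place 3 and 32. In RIE-Ras cells unnamed features stood above it at 2.58 ± 0.53 and 2.37 ± 1.56 (SD, n = 4). A lower unnamed feature, at 1.98 ± 0.26, had a smaller SD than Gadd45b. In RIE cells the highest feature was unnamed, at 3.21 ± 0.28. The named genes next to Gadd45b in RIE-Ras cells had wider spreads. They were the Src-family kinase Fyn at 2.31 ± 3.48 (SD, n = 4), the scavenger receptor Colec12 at 2.16 ± 1.76, the bile acid ligase Slc27a5 at 2.10 ± 1.14 and the mannose receptor Mrc1 at 1.88 ± 2.46, against 0.29 for Gadd45b. In RIE cells Smad7 was 8th, with an SD of 0.53 against 0.59 for Gadd45b, and the first 5 named genes, with wider spreads, were the olfactory receptor Or1e31 at 2.77 ± 2.08, the lipase-related Pnliprp2 at 2.54 ± 2.18, the lipid phosphatase Inpp4b at 2.23 ± 1.67, the phosphodiesterase Pde4b at 1.99 ± 1.81 and the cytokine Il2 at 1.89 ± 1.39.

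**Figure D3:**
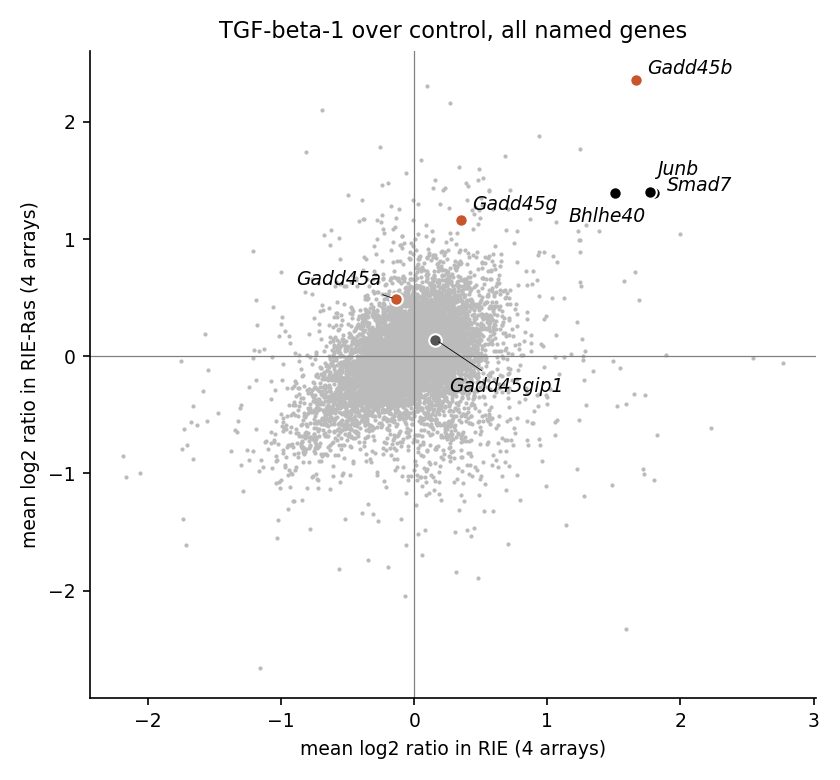
Mean log2 ratio of TGF-beta-1 over control in RIE (horizontal) and RIE-Ras cells (vertical), 4 arrays each, for all 9652 named genes as grey points. Gadd45b lies at 1.67 and 2.36, apart from Smad7, Junb and Bhlhe40, which lie lower in RIE-Ras cells, while Gadd45g and Gadd45a lie towards the body of genes.

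The genes that carry the TGF-beta signal towards Gadd45b mostly stood near the array median. Of 9 measured receptors and Smads, 5 had a positive mean ratio in RIE cells and 7 in RIE-Ras cells, with medians of 0.06 and 0.08, and Smad7 was the only one that passed in either line. Tgfbr1, the type I receptor, was at 0.72 (limma adjusted p = 0.131) in RIE and 0.45 (adjusted p = 0.214) in RIE-Ras cells. Smad6, the other inhibitory Smad, was at 0.56 (adjusted p = 0.135) and 0.33 (adjusted p = 0.255). Over all features the medians were -0.01 in RIE cells and 0.01 in RIE-Ras cells, with 49.2% and 50.8% positive.

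Early targets of TGF-beta, the group in which Gadd45b itself is usually placed, had higher medians. Of 17 measured members besides Gadd45b, 16 were positive in RIE cells with a median of 0.33, and 13 in RIE-Ras cells with a median of 0.44. Of all features 49.2% and 50.8% were positive. The list was chosen with earlier results of these data known, so these counts and medians are a description with no test. In RIE cells 1 passed, Smad7, and in RIE-Ras cells 3 passed, all higher: Smad7, Tgif1 and Thbs1. The share of features called higher was 0.0172% in RIE and 0.299% in RIE-Ras cells. Tgif1, a repressor of Smad-dependent transcription, was at 0.34 (adjusted p = 0.154) in RIE and rose by 0.91 in RIE-Ras cells (adjusted p = 0.0293). Thbs1, thrombospondin 1, was at 0.44 (adjusted p = 0.168) and rose by 0.87 in RIE-Ras cells (adjusted p = 0.0454), as the average of 4 features with means from 0.17 to 1.58. The calls in RIE-Ras cells held without RIE replicate 1 for Tgif1 and Thbs1, and without RIE-Ras replicate 4 for Tgif1, and were lost without each other array, with adjusted p up to 0.154 for each gene. Bhlhe40 stood at 1.51 (adjusted p = 0.0650) and 1.40 (adjusted p = 0.0540), and Junb, a subunit of AP-1, at 1.77 (adjusted p = 0.116) and 1.41 (adjusted p = 0.117). Ccn2, connective tissue growth factor, was at 0.43 (adjusted p = 0.358) and 1.25 (adjusted p = 0.0541). On RIE replicate 1, where Gadd45b was highest in its line, Junb was at 3.63, Bhlhe40 at 2.65, Smad7 at 2.59 and Smad6 at 1.06, each far above the other 3 RIE arrays; the part of that array in the results was not tested beyond leaving it out.

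NF-kappaB, the other known inducer of Gadd45b, was represented by 8 measured factors and inhibitors, and 0 passed in either line. Their medians were -0.20 in RIE cells and -0.02 in RIE-Ras cells. An unadjusted limma p under 0.05 was reached by 4 in RIE cells and 1 in RIE-Ras cells. Of all 17402 features, 3052 reached it in RIE and 3367 in RIE-Ras cells, the background for this list and those below. Nfkbia, the inhibitor that NF-kappaB itself induces, was below the array median on all 8 arrays, at -0.57 in RIE (adjusted p = 0.0800) and -0.57 in RIE-Ras cells (adjusted p = 0.0540). Being below 0 on all 8 arrays was shared by 4.72% of features. Nfkbib, a second inhibitor, was at -0.64 in RIE cells (adjusted p = 0.226), with values from -1.24 to 0.22.

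Downstream of Gadd45b, the p38 and JNK cascade showed no call among 12 measured genes in either line. These are RNA ratios, and the activity of the kinases was not measured. Their medians were -0.03 in RIE cells and -0.14 in RIE-Ras cells, and an unadjusted p under 0.05 was reached by 0 and 1 of them. Tab2, an adaptor of the kinase TAK1, was at 0.33 in RIE-Ras cells (adjusted p = 0.198). Map2k4, a kinase above JNK, was at 0.23 in RIE-Ras cells (adjusted p = 0.337), and Map2k3, a kinase above p38, at -0.34 (adjusted p = 0.347) and -0.33 (adjusted p = 0.339), with 2 features that differed in size and a mean of 0.02 in RIE cells without centring. Map3k4, the kinase that Gadd45 proteins bind, was looked up for that role although the naming rule did not select it. It was at 0.28 (adjusted p = 0.636) in RIE and -0.16 (adjusted p = 0.794) in RIE-Ras cells. Its 3 features disagreed, one of them with means of 0.82 and -0.91. Its sign turned in RIE cells without RIE replicate 4 (-0.00387) and in RIE-Ras cells without RIE-Ras replicate 1 (0.15) or without centring (0.12), so no direction can be given for it.

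Partners of Gadd45 in G2/M control and replication leaned in both directions, and 0 of 9 passed in either line. In each line 5 had an unadjusted p under 0.05, against 3052 (RIE) and 3367 (RIE-Ras) of all 17402 features. The medians were -0.11 in RIE cells and -0.18 in RIE-Ras cells. Plk1, the mitotic kinase, was at -0.74 (adjusted p = 0.103) and -0.51 (adjusted p = 0.132), and Pcna, the replication clamp, at -0.48 (adjusted p = 0.111) and -0.31 (adjusted p = 0.159). Cdk1, the mitotic kinase whose complex with cyclin B Gadd45 proteins inhibit, was at -0.55 in RIE cells (adjusted p = 0.142). Chek2, a checkpoint kinase, was at 0.31 (adjusted p = 0.232) and 0.30 (adjusted p = 0.214). Cdkn1a, which encodes p21 and was likewise looked up for its role, was at 0.22 (adjusted p = 0.407) in RIE and -0.33 (adjusted p = 0.220) in RIE-Ras cells, positive on every RIE array and negative on every RIE-Ras array after averaging, a pattern found on 94 features. Its 3 features disagreed in RIE cells, with means of 0.65, 0.07 and -0.06, and all 3 were negative in RIE-Ras cells. Its difference of -0.55 (adjusted p = 0.370) was opposite in sign to that of Gadd45a.

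For DNA demethylation and excision repair, 10 genes were measured and 0 passed, with medians of -0.05 and 0.01. Ing1, a chromatin reader that recruits Gadd45a to DNA, was at -0.60 (adjusted p = 0.111) in RIE and -0.38 (adjusted p = 0.163) in RIE-Ras cells. Dnmt3b, a de novo DNA methyltransferase, was at 0.32 in RIE-Ras cells (adjusted p = 0.133). An unadjusted p under 0.05 was reached by 1 of the 10 in RIE cells and 2 in RIE-Ras cells. Of all 17402 features, 3052 and 3367 reached it.

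The other GADD genes, which share the name for having been isolated with Gadd45a as growth arrest and DNA damage transcripts, and the integrated stress response around them were mostly below the array median. Of 12 measured, 11 were negative in RIE cells and 9 in RIE-Ras cells, with medians of -0.25 and -0.21, and 0 passed in either line. An unadjusted p under 0.05 was reached by 4 and 2 of them, against 3052 and 3367 of all 17402 features. Ddit3, also called Gadd153 or CHOP, was at -0.55 (adjusted p = 0.150) in RIE cells, the stress factor Atf4 at -0.54 (adjusted p = 0.202), and the chaperone gene Hspa5 at -0.31 (adjusted p = 0.236) in RIE and -0.37 (adjusted p = 0.153) in RIE-Ras cells. Trib3, a pseudokinase induced by Atf4, was at -0.51 in RIE-Ras cells (adjusted p = 0.196). The direction is relative to the array median: without centring the median of all features was 0.35 in RIE cells and 0.29 in RIE-Ras cells, and Hspa5 in RIE cells was at 0.05.

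Targets of p53, among which Gadd45a is counted, included 15 measured genes with medians of -0.06 (RIE) and -0.05 (RIE-Ras), with 0 called. In each line 3 had an unadjusted p under 0.05, against 3052 (RIE) and 3367 (RIE-Ras) of all 17402 features. Mdm2, the ubiquitin ligase of p53, was at 0.43 (adjusted p = 0.149) and the junction gene Perp at 0.56 (adjusted p = 0.166) in RIE-Ras cells. Ccng1, cyclin G1, was at -0.58 (adjusted p = 0.148) and the apoptosis effector Bax at -0.49 (adjusted p = 0.172) in RIE cells. The difference between the lines was 0.70 for Mdm2 (adjusted p = 0.292), in the direction of Gadd45a. Over the 8 lists together, 89 genes besides the Gadd45 family were measured. In RIE cells 2 of these, Smad7 and Junb, had a larger mean than Gadd45b, and in RIE-Ras cells 0 had one. Gadd45b was itself picked for its ratios.

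**Figure D4:**
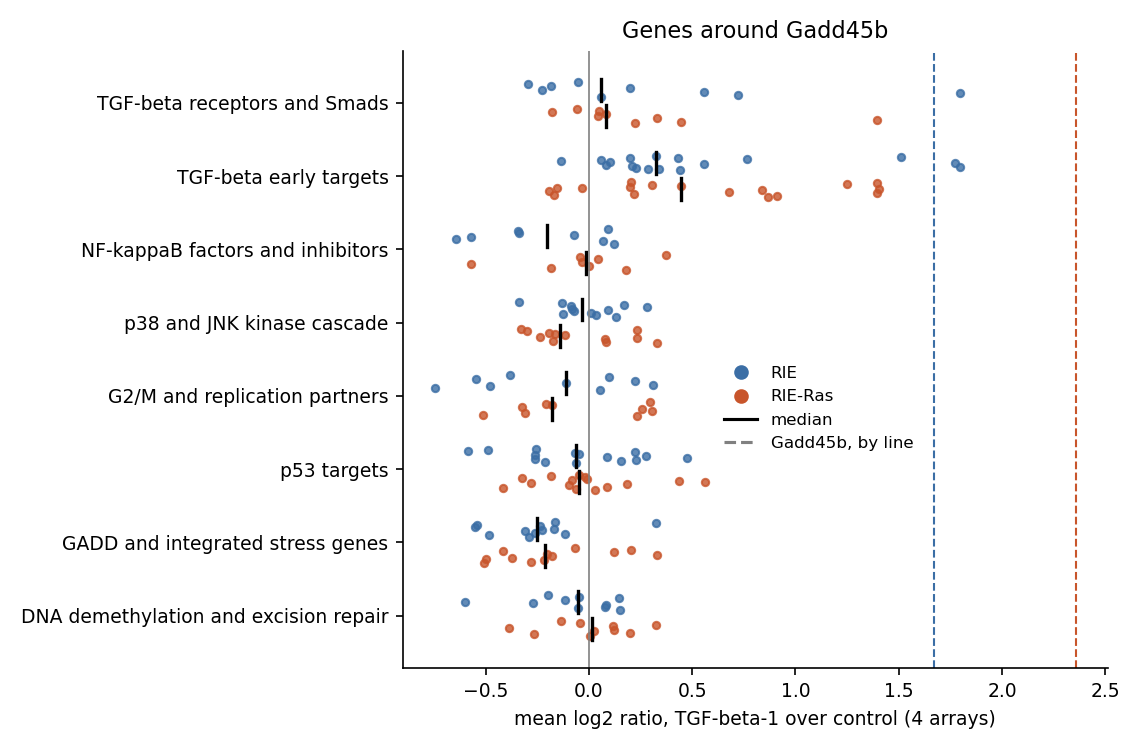
Mean log2 ratio of TGF-beta-1 over control (4 arrays a line) of each measured member of 8 gene lists, in RIE (blue, upper row of each list) and RIE-Ras cells (orange, lower row), with the median of a list as a black bar and Gadd45b as a dashed line for each line. In RIE-Ras cells no list member reaches Gadd45b at 2.36, and among the 8 lists the early targets have the highest medians, 0.33 and 0.44. Gadd45b and the lists were chosen with earlier results of these data known.

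The genes most like Gadd45b were sought by 2 measures over the 8 arrays, the Pearson correlation of their ratios, which ignores the level, and the root mean square distance, which does not. By correlation the first 5 were Ppid, a cyclophilin (r = 0.993), Ier2, an immediate early gene (0.991), Oxct1, a ketone body enzyme (0.983), Mphosph10, a nucleolar protein (0.977), and Homer1, a synaptic scaffold (0.975). In RIE cells 4 of the 5 had means below the array median, from -0.31 for Mphosph10 to -0.09 for Oxct1, and Ier2 was at 0.01. In RIE-Ras cells all 5 means were above it, from 0.13 for Ppid to 0.65 for Ier2. By distance the first 5 were Smad7 (0.720 on the log2 scale), Bhlhe40 (0.737), Junb (0.823), the angiogenic factor Vegfa (0.956) and Ccn2 (1.18). Vegfa had means of 1.29 and 1.12. Of the 5 nearest, Ccn2 also had a high correlation with Gadd45b (r = 0.972), while that of Smad7 was 0.239. For the relatives r was 0.683 for Gadd45g, at a distance of 1.36, and 0.545 for Gadd45a, at a distance of 1.89. Over the 8 arrays both correlations exceeded those of Smad7, Bhlhe40 (0.543) and Junb (0.515). They did not hold within each line: over the 4 arrays of RIE and of RIE-Ras cells r was 0.828 and -0.573 for Gadd45g and -0.170 and 0.172 for Gadd45a. On the same arrays r was 0.927 and 0.475 for Smad7, 0.942 and -0.352 for Bhlhe40 and 0.893 and 0.993 for Junb. Within both lines Smad7 and Junb thus had higher correlations with Gadd45b than its relatives had. These are correlations over 8 arrays of 2 lines picked from all named genes, and the points share the arrays and their scaling, so they describe the profiles only.

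**Figure D5:**
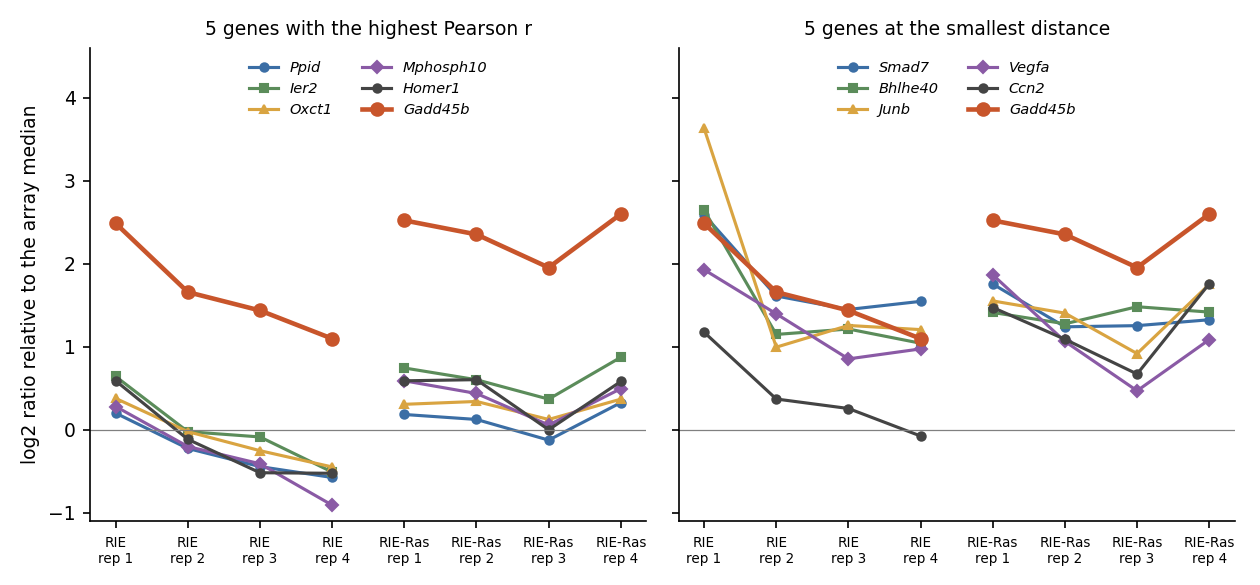
Log2 ratio relative to the array median on each of the 8 arrays for Gadd45b (thick orange) and, on the left, the 5 named genes with the highest Pearson r to it and, on the right, the 5 at the smallest root mean square distance. The genes on the left follow its shape at a level near 0, and those on the right lie nearer to its level, with Junb at 3.63 on RIE replicate 1.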

How the data were processed

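The values table, as deposited, holds 1 log2 ratio per feature and array, and per the labels the fold change is treated over control signal. The log2 scale was found from the values: the fold that each deposited value gives is a multiple of 0.01 for 100% of values (tolerance 0.01 of a step). The sources used here do not give dyes, background correction or within-array normalization, and state no dye swap. Features were named through the platform annotation, with symbols updated through the RefSeq table of GRCr8: 12750 of 20500 had 1 symbol, 5 had several and 7745 had none.

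The median of each array was subtracted, and averaging over features of a symbol left 17402. All 8 arrays were fitted in R 4.3.3 with limma 3.58.1 (lmFit, eBayes), with a mean per line and their contrast, two-sided, Benjamini-Hochberg adjusted over all features at 0.05. The moderated SE uses 6 residual and 2.71 prior degrees of freedom. The fit was tested on simulated data. Promoter windows are RefSeq's, and all 3 family genes matched.

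The members and gene lists were chosen with earlier results of these data known. The rule for named genes took the Gadd45 symbols and list members past the threshold or with the up to 4 smallest p in either line. It also took the 5 most like Gadd45b by each measure, Smad7, and the first 5 of the mean order. The list members Map2k7, Smug1, Apobec1, Smad2, Nfkb1 and Ikbkb were also taken by this rule and are not described singly. Like most that are described, they passed in no comparison. Their means ran from -0.34 (Ikbkb) to -0.09 (Map2k7) in RIE and from -0.19 (Map2k7) to 0.12 (Smug1) in RIE-Ras cells. Map3k4 and Cdkn1a were added for their role. Alternatives were no centring, equal spread, quantile normalization, unaveraged features, array weights, each line alone, a replicate block, RIE replicates 3 and 4 averaged, and leaving out each array.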

Additional observations from a re-analysis of the deposited data

Results flagged for a closer look

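After centring, Gadd45a lay below 0 on every RIE array and above 0 on every RIE-Ras array, with a difference of 0.62 on the log2 scale, which did not pass in limma (adjusted p = 0.331). Its RIE mean of -0.14 did not pass either (adjusted p = 0.626). Without centring that mean was 0.22, both lines were positive on average and their arrays overlapped. Cdkn1a, averaged over 3 features, was positive on every RIE and negative on every RIE-Ras array, with a difference of -0.55 (limma adjusted p = 0.370). Its features had RIE means of 0.65, 0.07 and -0.06, so the sign in RIE cells differed between them. Without centring its means were 0.58 in RIE and -0.04 in RIE-Ras cells. The pattern of Gadd45a was found on 214 features and that of Cdkn1a on 94.

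Single arrays stood far from the other 3 of their line for 4 genes. On RIE replicate 1 Smad7 was at 2.59, where the others lay between 1.45 and 1.61, Bhlhe40 at 2.65 (others 1.04 to 1.21), Junb at 3.63 (others 0.99 to 1.26) and Smad6 at 1.06 (others 0.33 to 0.44). On RIE-Ras replicate 1 Smad7 was at 1.75 (others 1.24 to 1.32). These are 5 of 66 sets of 4 arrays over 33 genes, and chance gives about 1 in 20. None of the sets of Gadd45b, Gadd45g or Gadd45a had such an array.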

How the results depend on the processing

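Under the alternatives the means of Gadd45b ran from 1.40 to 2.08 in RIE and from 2.09 to 2.64 in RIE-Ras cells. Gadd45b was positive on every array with and without centring, so leaving out, weighting or averaging arrays could not turn the sign of these means. Its difference between the lines stayed positive, from 0.01 to 0.96, with no adjusted p under the threshold. Counts of features past the threshold moved more. Without centring they were 4061 in RIE, 3657 in RIE-Ras and 1 for the difference, with a median feature of 0.35 and 0.29. Equal spread gave 87 in RIE cells and 10 in RIE-Ras, and quantile normalization 95 and 0. Array weights gave 6539 in RIE and 134 for the difference. These weights were 8.70 for RIE replicate 3 and 0.365 to 1.10 for the other arrays, so the weighted RIE results rest mostly on RIE replicate 3. Each line fitted alone gave 1 in RIE cells and 0 in RIE-Ras, and RIE replicates 3 and 4 averaged gave 1 and 4. Leaving out single arrays gave 0 to 30 in RIE, 0 to 137 in RIE-Ras and 0 to 2 for the difference. Signs turned without centring for Gadd45a (0.22), Hspa5 (0.0475) and Map2k3 (0.0176) in RIE and Map3k4 (0.12) in RIE-Ras cells, and for Map3k4 when single arrays were left out, with values from -0.00387 to 0.41 in RIE and from -0.40 to 0.15 in RIE-Ras cells; the cause was not tested beyond the shift of the median. With the replicate number as a block 0 features passed in RIE, RIE-Ras or the difference, where same-numbered arrays deviated together with r between -0.054 and 0.0654, so the numbers were not taken as pairs. No intensities were used, so what dim spots limit was not tested.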
